A study of Homo sapiens with 6 samples.

Results

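The IFIT genes encode interferon-induced proteins with tetratricopeptide repeats, which bind RNA in the cytosol. The 4 genes described here, IFIT1, IFIT2, IFIT3 and IFIT5, were taken by gene name from the 60671 genes of a deposited FPKM table, in which fragment counts are divided by gene length and by the depth of the library. They were measured in wild-type HaCaT cells, a human keratinocyte line that grows without limit in culture, in 3 libraries of cells held for 24 h in serum-free high-glucose DMEM with IFN-beta at 160 ng/mL, the stated default dose, and in 3 libraries of control cells held in parallel in that medium without IFN-beta. Both groups had been grown in serum beforehand, and the batch of each library is labelled unknown. Separate cultures are not stated for the replicates, and the p-values below therefore cover library-to-library spread that could be technical alone.

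IFIT proteins fold into helical repeats that form a groove for the end of an RNA. IFIT1 is known to bind capped RNA that lacks ribose methylation next to the cap, a mark that host mRNAs carry, and to keep such RNA from the translation machinery. IFIT5 binds RNA that still has a triphosphate at its start, IFIT2 binds AU-rich RNA, and IFIT3 binds IFIT1 and IFIT2 and stabilises IFIT1. Their genes are textbook targets of ISGF3, the transcription factor complex that type I interferon receptors activate and that binds the interferon-stimulated response element.

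The libraries held between 25832158 and 30594527 reads, as recovered from the steps of the FPKM values. The summed FPKM of 12 keratinocyte markers, among them KRT5, KRT14 and TP63, ran from 4099 to 4126 in the IFN-beta libraries and from 4180 to 4613 in the control libraries. Of these 12 genes 6 were higher, 4 lower and 2 did not pass in the test described below. Over all tested genes 22.5% were higher and 19.9% lower. The log2 changes of the 12 ran from -1.29 for KRT15 to 0.41 for TP63, and KRT5 had one of -0.51. Against this sum, 7 fibroblast markers summed to at most 3.27 FPKM in any library, 6 melanocyte markers to at most 4.69, 6 immune markers to at most 4.05 and 4 endothelial markers to at most 2.22. DCN (fibroblast), MLANA, TYR and SOX10 (melanocyte) and LYZ and MS4A1 (immune) were at 0 in all 6 libraries. The endothelial marker CDH5 was higher, at 1.97 ± 0.101 FPKM with IFN-beta and 0.731 ± 0.0847 FPKM in control (SD, n = 3 each). The fibroblast marker COL1A1 was higher with a log2 change of 0.48, and the melanocyte marker MITF lower with one of -0.39. The part of these genes in the results below was not tested. In bulk RNA, fewer cells with a transcript and less of it per cell cannot be told apart.

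All 4 genes lie on the plus strand of chromosome 10, within 137.3 kb. The deposited table places IFIT2 (ENSG00000119922) from 89283694 to 89309271, IFIT3 (ENSG00000119917) from 89327997 to 89340971, IFIT1 (ENSG00000185745) from 89392546 to 89406487 and IFIT5 (ENSG00000152778) from 89414568 to 89420997. Its coordinates are those of human build GRCh38, as judged from their match to GENCODE release 29. IFIT2, IFIT3 and IFIT1 lie inside the span of LIPA, the lysosomal acid lipase gene, which runs on the opposite strand and ends at 89414557. IFIT5 starts 11 bases past that end. Among the coding transcripts of LIPA in GENCODE, only the longest in span reaches 89414557. Another reaches 89342704, and the rest stop at or before 89252058, short of IFIT2. In GENCODE each member has a transcript in which the first coding exon holds 5 coding bases and 1 later exon holds the rest, between 1411 and 1465 bases.

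Sequences upstream of the genes are shown to mark where letters match the core of the element through which ISGF3 is known to act. RefSeq promoter windows (build GRCh38.p14, 250 bases before to 50 after a start) were at hand for 3 of the 4 members, with 2 windows for IFIT3. They were searched on both strands for the core of the interferon-stimulated response element, GAAA, any pair of bases (NN) and GAAA. It reads TTTC, NN and TTTC on the plus strand shown here. Capitals mark the matches, the strand is plus throughout, and each run stops at the first annotated transcript start, or at the end of a match that crosses it. For IFIT5 only the matches with 5 bases on each side are shown.
IFIT1 (chr10:89392373-89392545): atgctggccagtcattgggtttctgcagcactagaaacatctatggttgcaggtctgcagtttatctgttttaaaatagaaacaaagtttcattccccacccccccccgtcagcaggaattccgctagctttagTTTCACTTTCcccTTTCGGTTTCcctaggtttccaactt
IFIT3, start farther upstream (chr10:89327747-89327893): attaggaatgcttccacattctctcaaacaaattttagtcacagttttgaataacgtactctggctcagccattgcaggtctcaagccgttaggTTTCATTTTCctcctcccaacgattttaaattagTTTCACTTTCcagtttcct
IFIT3, start farther downstream (chr10:89332279-89332487): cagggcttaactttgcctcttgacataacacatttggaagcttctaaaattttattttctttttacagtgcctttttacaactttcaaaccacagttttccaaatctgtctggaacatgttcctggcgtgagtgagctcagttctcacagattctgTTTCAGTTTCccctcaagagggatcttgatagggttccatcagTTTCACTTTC
IFIT5, match farthest from the start (chr10:89414518-89414537): ttaagTTTCGGTTTCtgaag
IFIT5, middle match (chr10:89414544-89414563): tttagTTTCGATTTCttaag
IFIT5, match at the start (chr10:89414559-89414578): ttaagTTTCAGTTTCtgagc
IFIT1B (chr10:89377806-89378055): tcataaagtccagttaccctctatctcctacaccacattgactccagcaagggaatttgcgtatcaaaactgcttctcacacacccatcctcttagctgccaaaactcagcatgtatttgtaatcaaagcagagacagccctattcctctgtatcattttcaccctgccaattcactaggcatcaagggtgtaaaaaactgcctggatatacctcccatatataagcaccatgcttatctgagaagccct
The core occurred 2 times in the window of IFIT1, 2 times in each IFIT3 window and 3 times in that of IFIT5. In IFIT1 the matches end 107 and 94 bases before the RefSeq start. In IFIT5 they end 36 and 10 bases before it, and the remaining match spans it. Among all 35116 RefSeq windows, 3.57% held at least 1 match and 0.259% at least 2. The window of IFIT1B, a family gene between IFIT3 and IFIT1 that is not among the 4, held none. No member window held TTCNNNGAA, the site of STAT homodimers, which 7.66% of all windows held. TATAAA was found in 1 member window, that of the upstream IFIT3 start, on the minus strand 25 bases before it, and in 11.5% of all windows. A match is a description of letters, not a measured binding site.

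All 4 members were higher with IFN-beta, by 3.17-fold to 43.2-fold in mean FPKM, and in none did the groups overlap. The test was limma on log2(FPKM + 0.5) over the 15163 genes with a mean of at least 0.5 FPKM, two-sided, with Benjamini-Hochberg adjustment over all of them and a threshold of 0.05. At that threshold 42.4% of all tested genes changed, 22.5% higher and 19.9% lower. The groups did not overlap in 54.0% of tested genes, and in 28.6% they did not overlap with IFN-beta higher. A rise of at least 1 on the log2 scale, which all 4 members passed, was called in 2.96% of tested genes. A rise of at least 2, which 3 members passed, was called in 0.805%. Log2 changes of tested genes below are on the log2(FPKM + 0.5) scale, and where ± follows such a change it gives the SE.

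IFIT1, the sensor of incompletely methylated caps, stood at 286, 307 and 314 FPKM in the IFN-beta libraries, against 5.96, 6.57 and 8.47 FPKM in the control libraries. Every treated library was far above every control library, and the control libraries spread more in relative terms. The mean was 302 ± 14.3 FPKM with IFN-beta and 6.998 ± 1.31 FPKM in control (SD, n = 3 each), a log2 change of 5.35 ± 0.105 (limma adjusted p = 1.29e-09). By size of rise it was rank 13 of the 15163 genes tested.

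IFIT3, the partner that stabilises IFIT1, was the most abundant member in both groups. It had 746, 768 and 785 FPKM with IFN-beta, against 46.5, 48.5 and 55.3 FPKM in control. The groups were separated by more than the whole spread within either. The log2 change was 3.93 ± 0.061 (limma adjusted p = 2.60e-10), with means of 766 ± 19.8 FPKM in IFN-beta and 50.1 ± 4.66 FPKM in control libraries (SD, n = 3 each).

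IFIT2, which is also known to promote apoptosis, had 259.7, 291 and 304 FPKM in the IFN-beta libraries, against 21.7, 22.4 and 25.6 FPKM in control libraries. The treated libraries again stood clear of the controls. The change was 3.59 ± 0.073 on the log2 scale (limma adjusted p = 1.68e-09), with means of 285 ± 22.7 FPKM with IFN-beta and 23.2 ± 2.05 FPKM in control (SD, n = 3 each). Of its exonic bases 8.7% are shared on the same strand with the noncoding gene AL353751.1 and 1.6% on the opposite strand with LIPA, and the use of strand in counting is not given in the sources used here.

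IFIT5, which binds triphosphate RNA and tRNA, had the smallest change of the 4. It stood at 42.7, 42.7 and 43.0 FPKM with IFN-beta, against 12.1, 14.0 and 14.4 FPKM in control. The treated values lay above all control values. Their coefficient of variation was 0.448%, the smallest of the 4 members, from 5185, 4575 and 5304 reads. Over 3 libraries such closeness cannot be told from chance. The log2 change was 1.63 ± 0.066 (limma adjusted p = 2.29e-07), with means of 42.8 ± 0.192 FPKM in IFN-beta and 13.5 ± 1.28 FPKM in control libraries (SD, n = 3 each), and rank 187 by size of rise.

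**Figure D1:**
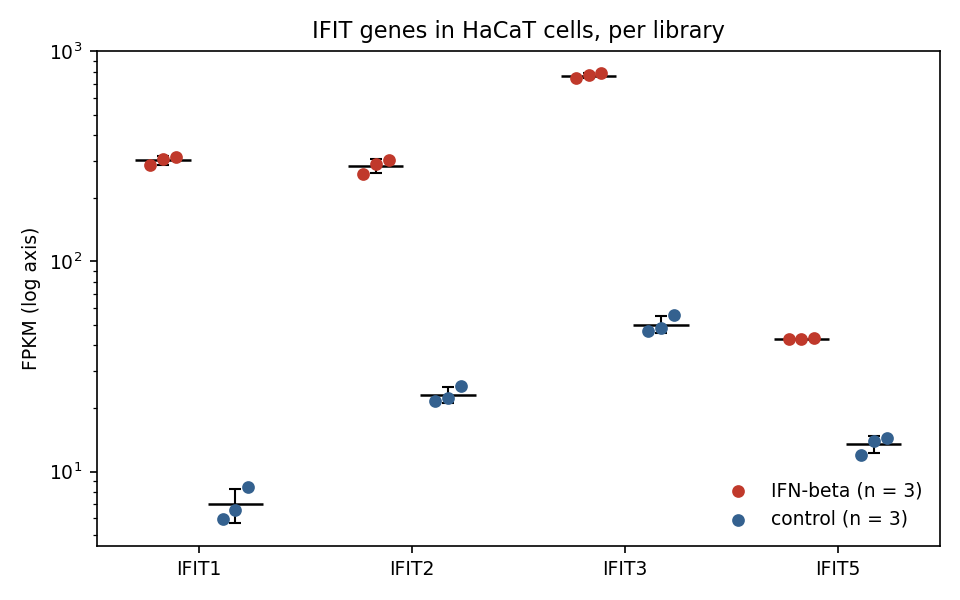
FPKM (log axis) of the 4 IFIT genes in each library, with IFN-beta libraries in red left of control libraries in blue. Lines and bars give the mean and SD of 3 libraries, and in each gene all treated points lie above all control points.

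Within each group the 4 genes ordered the libraries alike. IFN-beta replicate 3 held the highest and IFN-beta replicate 1 the lowest value of every member, and the same held for control replicates 3 and 1. The summed FPKM of the 4 genes was 1334, 1409 and 1445 in IFN-beta libraries and 86.2, 91.4 and 104 in control libraries. Their reads made up 0.434% ± 0.0188 of all reads with IFN-beta and 0.0285% ± 0.00282 in control (SD, n = 3 each), a ratio of 15.2.

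The make-up of the family was compared between the groups on the FPKM scale, which is per length. On it the control order was IFIT3, IFIT2, IFIT5 and IFIT1, and no neighbours in that order overlapped. With IFN-beta it was IFIT3, IFIT1, IFIT2 and IFIT5. There IFIT1 and IFIT2 overlapped in range, with IFIT1 above IFIT2 in each of the 3 libraries by 0.14, 0.076 and 0.046 on the log2 scale. IFIT1 made up 21.6% ± 0.176 of the summed FPKM in IFN-beta libraries, against 7.42% ± 0.653 in control libraries. IFIT5 made up 3.07% ± 0.115 with IFN-beta, against 14.4% ± 0.802 in control. IFIT3 held 54.9% ± 0.856 and 53.4% ± 0.444, and IFIT2 held 20.4% ± 0.811 and 24.8% ± 0.397, each with IFN-beta and in control (SD, n = 3 each).

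Levels between genes rest on the lengths that the FPKM imply, which were 4458 bases for IFIT1, 3378 for IFIT2, 2423 for IFIT3 and 4029 for IFIT5. GENCODE gives IFIT1 transcripts of 1880 and 4613 bases, so its level per transcript, and its place beside IFIT2, depend on which of them is made. In reads, IFIT1 had 38474, 36357 and 42773 with IFN-beta, against 786, 878 and 975 in control. IFIT2 had 26462, 26132 and 31388 reads with IFN-beta, against 2173, 2267 and 2231 in control. The length used cancels from the fold change of a gene in mean FPKM between groups. A shift between its transcripts would not cancel, and their use was not measured.

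**Figure D2:**
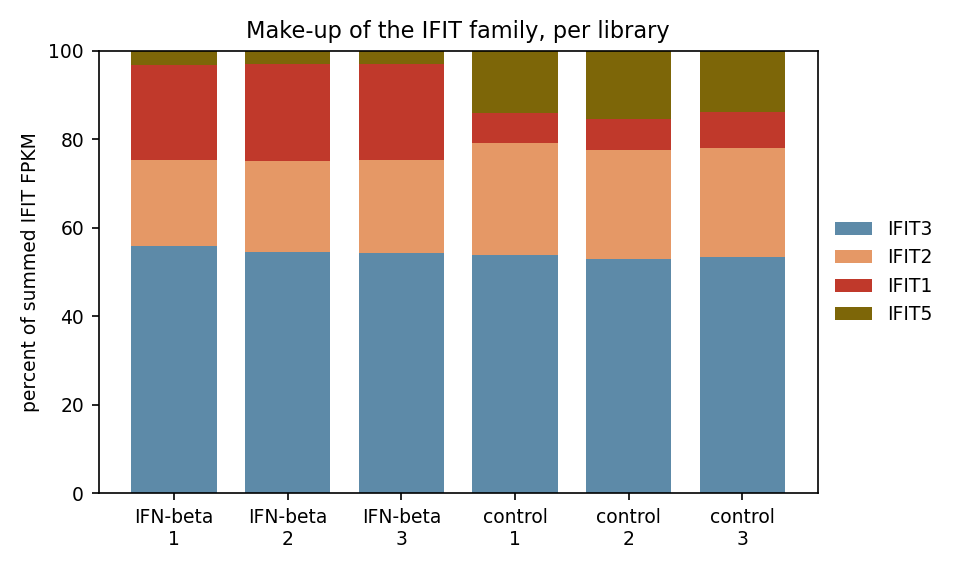
Percent of the summed FPKM of the 4 IFIT genes held by each gene (stacked bars from 0 to 100), per library, with IFN-beta libraries left of control libraries. The IFIT1 band is wider with IFN-beta, 21.6% against 7.42% in control, and the IFIT5 band is narrower, 3.07% against 14.4%.

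Whether the members changed by different amounts was tested on the log2 ratio of 2 members within each library, which a scaling factor per library cannot alter. In all 6 pairs the IFN-beta and control ratios did not overlap. Each pair was written with the member of larger log2 change first. The 6 ratios come from 4 genes and are not independent, and the share over other gene pairs was not counted. The ratio of IFIT1 to IFIT5 was 2.82 ± 0.064 with IFN-beta and -0.96 ± 0.169 in control (SD, n = 3 each), a difference of 3.78 on the log2 scale. The difference was 2.27 for IFIT3 over IFIT5, 1.95 for IFIT2 over IFIT5, 1.83 for IFIT1 over IFIT2 and 1.51 for IFIT1 over IFIT3. The smallest difference of the 6 was that of IFIT3 over IFIT2, with ratios of 1.43 ± 0.080 in IFN-beta and 1.11 ± 0.011 in control libraries and a difference of 0.32. Each pair gave a two-sided exact permutation p of 0.1, also 0.1 after adjustment over the 6 pairs, which is the smallest that 3 against 3 libraries can give and misses the threshold.

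The family gene IFIT1B was near the floor. It had 13, 10 and 21 reads in the IFN-beta libraries, against 0, 0 and 1 read in the control libraries, where 3 reads equal at most 0.0589 FPKM. Its reads per library total were 43.0-fold higher with IFN-beta, with an exact 95% interval of 7.33 to 1738 that covers counting error only. IFIT1B shares 38 of its 1923 distinct stretches of 50 bases, or 1.98%, with IFIT1, which had at least 36357 reads in each treated library. The part of reads from IFIT1 in this value was not tested. IFIT1 shared 1.02% of its stretches with any other gene in GENCODE, IFIT3 3.64% and IFIT5 none. IFIT2 shared 7.91%, mostly with AL353751.1. The pseudogene IFIT6P was at 0 in all 6 libraries.

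The rise of the members was set beside that of the genes around them. Within 500 kb of either side of the 4 genes the table lists 34 other genes, of which 11 were at 0 in all libraries and 10 were tested. Of these 3 were higher, 2 lower and 5 did not pass, shares near the 22.5% higher and 19.9% lower over all tested genes. LIPA, in whose span IFIT1, IFIT2 and IFIT3 lie, had 211 ± 4.93 FPKM with IFN-beta and 221 ± 15.4 FPKM in control (log2 change -0.07 ± 0.051, limma adjusted p = 0.315). LIPA passed only without control replicate 1 (-0.12, limma adjusted p = 0.0467). CH25H, the cholesterol hydroxylase that in immune cells is known as interferon-induced, stood at 1.19 ± 0.190 FPKM with IFN-beta and 1.39 ± 0.235 FPKM in control (log2 change -0.16, limma adjusted p = 0.417).

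Among the neighbours that rose, ACTA2, smooth muscle actin, had 5.30 ± 0.782 FPKM with IFN-beta and 2.15 ± 0.0207 FPKM in control (log2 change 1.12), the largest change of the 10. Of its exonic bases 30.1% are shared on the opposite strand with ACTA2-AS1 and FAS. The deubiquitinase gene STAMBPL1 had a log2 change of 0.43 and the death receptor gene FAS one of 0.27. The spindle kinesin KIF20B had one of -0.51 and ANKRD22 one of -0.32. The ANKRD22 call ended without IFN-beta replicate 2 (limma adjusted p = 0.0527). AL353751.1, which lies within the IFIT2 span, was listed at 0.547, 0.517 and 0.359 FPKM with IFN-beta and at 0 in all 3 control libraries. Of its exonic bases 35.2% are shared with IFIT2 on the same strand, and the part of IFIT2 reads in this value was not tested.

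**Figure D3:**
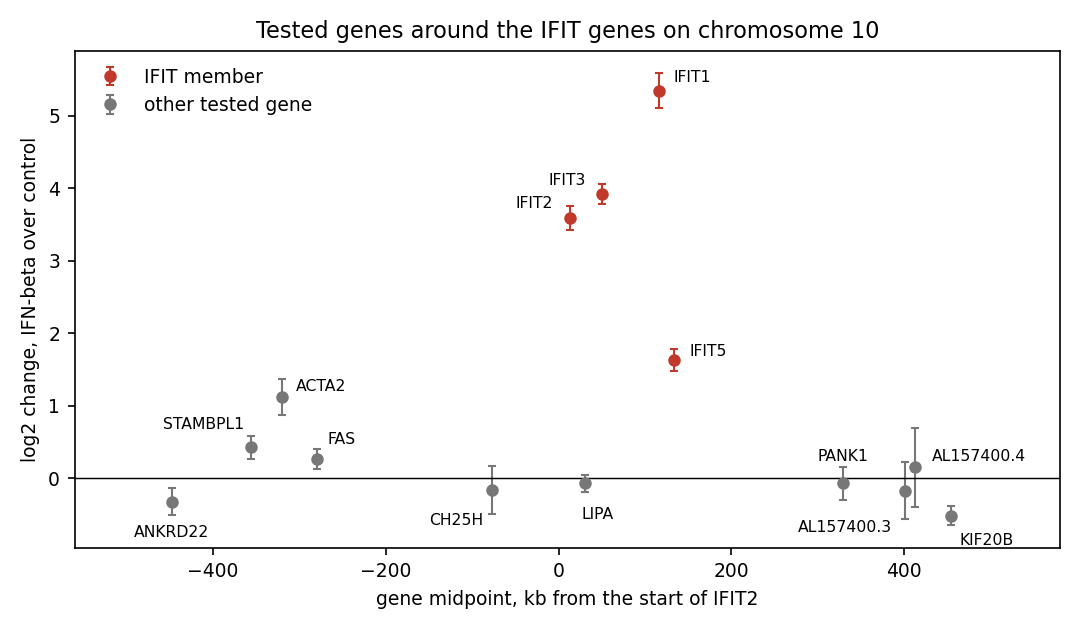
Log2 change (IFN-beta over control, with 95% interval) of the 14 tested genes around the IFIT genes, placed by the distance of the gene midpoint from the start of IFIT2 in kb. The 4 IFIT genes, in red, lie between 1.63 and 5.35, and the other 10, in grey, between -0.51 and 1.12.

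Genes that carry or restrain the interferon signal were mostly higher. A list of 13 genes was made up of receptor chains, kinases, STAT and IRF factors and the inhibitors USP18 and SOCS1. Of these 11 rose and 2 did not pass, beside 22.5% higher and 19.9% lower over all tested genes. The median log2 change was 0.45, against 0.01 over all tested genes. The transcription factor IRF7 had 121 ± 10.1 FPKM with IFN-beta and 5.26 ± 0.415 FPKM in control (SD, n = 3 each, log2 change 4.40). STAT2 had a change of 2.49 and the receptor brake USP18 one of 4.32. TYK2, a receptor kinase, had 0.11 (limma adjusted p = 0.145) and passed without control replicate 1 (0.16, limma adjusted p = 0.0385). The receptor chain IFNAR1 had -0.03 (limma adjusted p = 0.659), and 0.02 once all libraries were scaled to one sum.

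RNA levels were also compared for sensors of viral RNA together with the adaptors and kinases that act after them. In this list of 10 genes 8 rose, 1 fell and 1 did not pass, beside 22.5% higher and 19.9% lower over all tested genes. The median log2 change was 0.98. IFIH1, which senses long double-stranded RNA, had a log2 change of 3.23, its relative DHX58 one of 3.09, DDX58, which encodes the triphosphate RNA sensor RIG-I, one of 2.85 and the kinase EIF2AK2 one of 1.56. TOMM70, the mitochondrial import receptor that links MAVS to downstream kinases, stood at 126 ± 1.27 FPKM with IFN-beta and 131 ± 3.07 FPKM in control (log2 change -0.05, limma adjusted p = 0.238), and passed after quantile normalization (-0.11, limma adjusted p = 0.0231). The adaptor MAVS fell by 0.22 (limma adjusted p = 0.0213). That call was lost when IFN-beta replicate 1 or 2 was dropped (0.0724 and 0.0615, adjusted p of limma), likewise control replicate 1 or 2 (0.0556 and 0.0598), without the filter on level (0.0536) and after rescaling to the same sum (0.0606).

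Among 12 other interferon-induced effectors that act on RNA or with IFIT proteins 11 rose, with a median log2 change of 3.94. The GTPase genes MX2 and MX1 had changes of 8.61 and 7.07, the oligoadenylate synthetase OAS2 one of 5.63 and the ubiquitin-like modifier ISG15 one of 5.18.

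Next were enzymes that build, mark or remove the RNA end that IFIT1 reads. Of 14 genes 4 rose, 2 fell and 8 did not pass, shares near the 22.5% higher and 19.9% lower over all tested genes, and the median log2 change was 0.01. CMTR1 makes the ribose methylation next to the cap that IFIT1 is known to check. It had 84.6 ± 3.20 FPKM with IFN-beta and 35.4 ± 2.72 FPKM in control (SD, n = 3 each, log2 change 1.25 ± 0.058, limma adjusted p = 6.17e-07). XRN1, the exonuclease that degrades decapped RNA, had 68.1 ± 0.738 FPKM with IFN-beta and 33.1 ± 0.342 FPKM in control (log2 change 1.03), and the decapping cofactor DCP1A a change of 0.69. The cap adenosine methyltransferase PCIF1 fell by 0.27 and the decapping exonuclease DXO fell by 0.21. The DXO call was lost when IFN-beta replicate 1 or control replicate 2 was dropped (limma adjusted p = 0.0531 in both). The nuclear exonuclease XRN2 had -0.10 (limma adjusted p = 0.0771), and passed after quantile normalization and without control replicate 1 (0.0260 and 0.0442). DUSP11, which removes phosphates from the start of triphosphate RNA, had 0.05 (0.508).

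Cap-binding and eIF4F genes include the machinery with which IFIT1 competes for capped RNA. The list also holds nuclear cap-binding genes and repressors of eIF4E, some of them among the genes that fell. Of 16 genes 1 rose, 6 fell and 9 did not pass, beside 22.5% higher and 19.9% lower over all tested genes, with a median log2 change of -0.10 and a range of -0.38 to 0.20. Their split depended on scaling, with 2 higher and 2 lower after rescaling to the same sum and 3 higher and 6 lower after quantile normalization. EIF4B, a helper of the eIF4A helicase, had 388 ± 4.74 FPKM with IFN-beta and 506 ± 7.48 FPKM in control (log2 change -0.38), and NCBP2, a subunit of the nuclear cap-binding complex, a change of -0.19. The scaffold EIF4G1 rose by 0.20, but lost its call when IFN-beta replicate 1 or control replicate 2 was dropped (0.0530 and 0.0546, adjusted p of limma), without the filter on level (0.0536) and in eBayes without trend (0.0515). EIF4EBP1, a repressor of the cap-binding protein eIF4E, fell by 0.18, a call lost when IFN-beta replicate 1 or 2 was dropped (0.0754 and 0.0663, adjusted p of limma), without the filter on level (0.0594), after rescaling to the same sum (0.0572) and in eBayes without trend (0.0626). EIF4A2 had -0.09 (limma adjusted p = 0.0986) and passed without control replicate 1 (0.0389). LARP1 had 0.11 (0.0822) and passed with libraries scaled to one sum (0.0281), after quantile normalization (0.0474), with limma voom (0.0485) and without control replicate 1 (0.0074).

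Subunits of eIF3, the initiation factor that IFIT1 and IFIT2 are known to bind, were lower or did not pass. Of 14 genes 8 fell, none rose and 6 did not pass, beside 19.9% lower over all tested genes, with a median log2 change of -0.17, and 8 fell under each scaling tried and without each single library. EIF3E, a subunit reported to bind IFIT1, had 378 ± 6.09 FPKM with IFN-beta and 537 ± 50.1 FPKM in control (SD, n = 3 each, log2 change -0.50 ± 0.062, limma adjusted p = 2.77e-04). EIF3L, EIF3K and EIF3F had changes of -0.34, -0.30 and -0.30. EIF3J had 0.04 (limma adjusted p = 0.431). EIF3B had 0.08 (limma adjusted p = 0.121) and passed with libraries scaled to one sum (0.0299) or with control replicate 1 dropped (0.0399). EIF3C and EIF3CL are near-identical copies whose levels are uncertain.

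**Figure D4:**
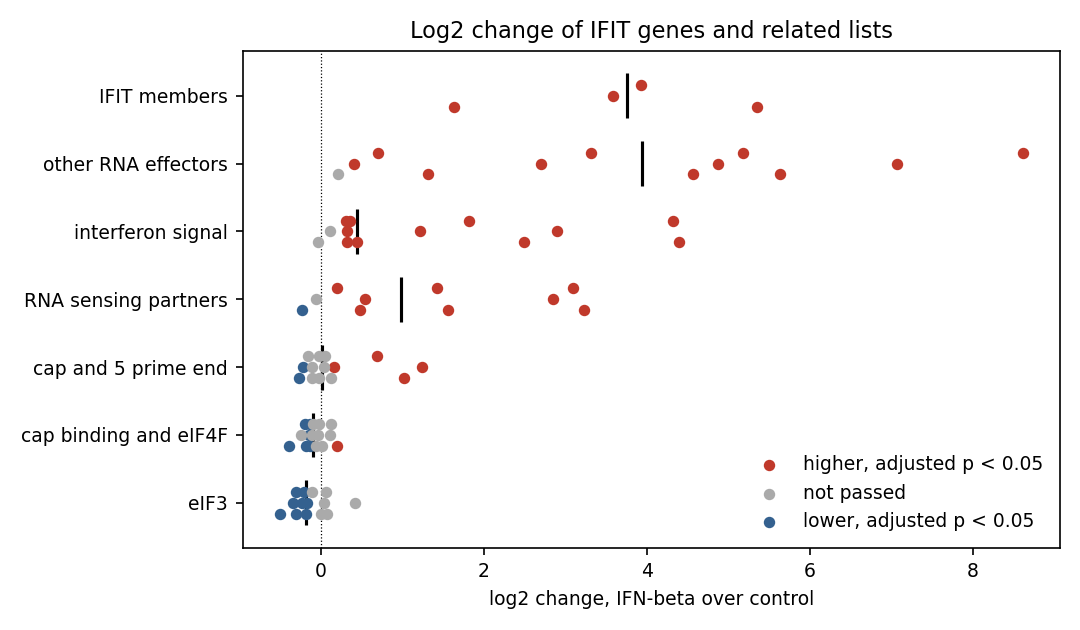
Log2 change (IFN-beta over control) of each tested gene in the IFIT family and in 6 related lists, with red for higher, blue for lower and grey for not passed at a limma adjusted p of 0.05. Black lines mark list medians, at 3.94 for the other RNA effectors, 0.45 for the interferon signal and -0.17 for eIF3.

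The genes whose pattern over the 6 libraries was most like that of each member were sought among 13289 tested genes with a mean of at least 1 FPKM, by the root mean square difference of log2(FPKM + 0.5) centred on the control mean. With only 6 libraries in 2 groups, this likeness mostly reflects a similar size of change. Nearest to IFIT3 were HERC6, a ubiquitin ligase relative, at 0.038 log2 units, the helicase relative DDX60L at 0.057 and the noncoding AP001610.2 at 0.113. Nearest to IFIT2 were GBP5 at 0.071, the membrane antiviral gene IFITM1 at 0.104 and EPSTI1 at 0.106. IFIT1 stood farther from its neighbours, with ISG15 at 0.186, the nucleotide kinase CMPK2 at 0.225 and XAF1 at 0.230. Nearest to IFIT5 were AC078820.1 at 0.051, MYEOV at 0.065 and AL671883.2 at 0.072, all of which had control means of at most 0.802 FPKM, near the pseudocount. GBP5 and AP001610.2 also had control means near it, at 0.206 and 0.0347 FPKM.

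The deposited annotation gives the 4 members few terms in common. All 4 carried the GO terms RNA binding, protein binding, cytosol and defense response to virus and the Reactome term for interferon alpha and beta signalling. RNA cap binding and tRNA binding were held by IFIT5 alone among the 4, positive regulation of the apoptotic process by IFIT2 alone and its negative regulation by IFIT3 alone.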

How the data were processed

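The authors deposited 1 table of FPKM values for 60671 genes in 6 libraries, with symbols, coordinates and ontology terms, per the file headers. Per the labels' protocols the RNA came from HaCaT cells and CLC Genomics Workbench 11.0.1 was used, without its step. How reads were aligned and counted, and whether by strand, is not given in the sources used here. The mouse builds GRCm38 and mm10 are named per the submitters' processing notes, while all 60671 identifiers are human. Of 58453 identifiers also in GENCODE release 29 (GRCh38), 76.89% had the same coordinates there.

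Groups came from the sample titles. Whole reads were recovered for 100% of the 30507 genes above 0 within a tolerance of 0.01 reads, using the GENCODE exon length where it gave whole reads and otherwise the smallest length that did, so a count of few reads may be a fraction of the true one. In each library these reads made up 99.84% to 99.88% of its total. The floor was 3 reads, and intervals and floors cover counting error only.

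The log2(FPKM + 0.5) values went into lmFit and eBayes with trend of limma 3.58.1 (R 4.3.3), over 15163 genes with a mean of at least 0.5 FPKM. This pseudocount understates the change of low genes. Other steps ran in Python 3.11.15 with numpy 2.4.6, pandas 2.3.3, matplotlib 3.10.9 and scipy 1.17.1.

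The members and lists were chosen with earlier results of these data known. Named are the members, up to 4 called genes per list by size of change, up to 2 that did not pass by level, up to 3 that moved against their list, the tested genes within 500 kb and the 3 genes most like each member. EIF3C, EIF3CL, IFIT6P, AL353751.1 and the markers were named outside this rule, after their values were seen. Also tried were a pseudocount of 0.1 or 1, a filter at a mean of 2 FPKM or none, size factors by median of ratios, quantile normalization, rescaling to the same sum, eBayes robust or without trend, the replicate number as a block, limma voom on the recovered reads and each library left out. Some genes of the lists that the naming rule picks are not reported here.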

Additional observations from a re-analysis of the deposited data

How the results depend on the processing

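Under all 17 alternatives each of the 4 IFIT genes stayed higher and past the threshold. With 1 library dropped the log2 change of IFIT1 lay between 5.25 and 5.49, and otherwise between 5.26 and 5.46. By the same pair of ranges, IFIT2 ran from 3.54 to 3.66 and from 3.56 to 3.64, IFIT3 from 3.87 to 3.998 and from 3.90 to 3.995, and IFIT5 from 1.56 to 1.68 and from 1.59 to 1.69. The largest adjusted p of limma was 4.92e-05, for IFIT5. The differences between members kept their direction with a pseudocount of 0.5 and without each library, and the smallest, IFIT3 over IFIT2, ran from 0.28 to 0.35.

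Over all genes 6431 were called, 3419 higher and 3012 lower, against 4094 and 2360 with libraries scaled to one sum and 2741 and 3894 after quantile normalization. Same-numbered libraries of the groups did not deviate together (r = -0.0524, -0.0982 and -0.0582). With 3 libraries per group this cannot settle whether they were paired. With the replicate number as a block 5817 genes were called, and all 4 members.

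In the small lists, counts of 1 to 6 moved. RNA sensing partners had 0 lower without the filter on level and after rescaling to the same sum, 2 after quantile normalization and 0 to 1 without single libraries. Cap and RNA end enzymes had 4 lower after quantile normalization and 1 to 3 without single libraries. Cap-binding genes had 0 higher and 3 lower without the filter and in eBayes without trend, 2 higher and 2 lower after rescaling to the same sum, 3 higher after quantile normalization and 2 higher with voom, and 0 to 2 higher and 2 to 6 lower without single libraries. The cause was not tested. Changes that did not pass turned sign for IFNAR1 (0.017 after rescaling to the same sum), PANK1 (-0.12 to 0.0051 without single libraries) and AL157400.4 (-0.14 to 0.30 without single libraries). Depth limits IFIT1B and AL353751.1, whose control libraries hold at most 1 read.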

Other observations

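The interferon-stimulated response element core that the IFIT1, IFIT3 and IFIT5 windows hold was counted in the windows of other tested genes, of which 10070 had one. Genes called at least 4-fold higher with IFN-beta held it in 39 of 82 cases, or 47.6%, and at least 2 matches in 17, or 20.7%. Genes called 2-fold to 4-fold higher held it in 32 of 174, or 18.4%, and genes called at least 2-fold lower in 1 of 20. Genes that did not pass held it in 190 of 5406, or 3.51%, and at least 2 matches in 9. These shares describe letters in short windows, carry no test, and include the 3 IFIT genes that have a window.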
